A study of Mus musculus with 4 samples.

Results

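The array design used in this series carried 20679 probes for noncoding transcripts, each of 60 bases and each printed as 1 spot, among 61307 probes that are not controls. The account here covers the 6746 of them (32.6% of the noncoding probes, 11% of all probes) that the scanner software called well above background on all 4 arrays. The detection flags chose the probes, so their detection is no result. Of the other noncoding probes, 1585 were detected on 3 arrays, 1393 on 2, 1754 on 1 and 9201 on none. For comparison, 48.7% of the 40628 remaining probes, which are directed mostly at annotated genes, were detected on all 4 arrays. Among the 6746 probes, 16 had a spot flagged as an outlier on some array and were left out, so 6730 had 4 values. Probe names class 6740 of the 6746 as mRNA-like transcripts, most of them named by the accession of a full-length cDNA clone, and the other 6 as H19, BC1 (2 probes), GNAS1, SRA and a snoRNA. Each name ends in a number that begins with u. What this u-number groups is not given in the sources used here.

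The arrays compared sorted marrow cells of C57BL6/J mice aged 7 weeks. LSK cells (lineage-negative, Sca-1-positive and c-kit-positive, the fraction that holds the blood stem and early progenitor cells) and CD45-negative cells, labelled stromal or niche cells, came either from healthy mice (day 0) or from mice on day 10 after a transplant. The latter were CD45.1 recipients, irradiated with 700 cGy and then transplanted with 30000 LSK cells from CD45.2 donors. The labels name the stromal sort both CD45-negative and CD45.1-negative, and do not say how many mice were pooled. Each of the 4 groups had 1 array, so no difference had a test, a standard error or a check against other mice, and 2-fold is used below as a size only. The sort was not free of blood cells: Ptprc, the gene of CD45, was above background on all 4 arrays. Its log2 level, on the scale defined further on, was highest in CD45-negative cells at day 10 (5.58) and lowest in those at day 0 (3.1). In LSK cells it was 4.18 at day 0 and 4.25 at day 10. The part of this in the CD45-negative comparisons was not tested. Red cell genes were bright in CD45-negative cells at day 0. In such bulk samples fewer cells of a type and less RNA per cell cannot be told apart.

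Long noncoding RNAs are transcribed, and often spliced and polyadenylated, like messenger RNAs, but carry no recognised protein. Many start close to the promoter of a coding gene and run away from it on the other strand. Others derive from introns, untranslated ends or repeated elements of the genome, which places the same short sequence in many transcripts. The labelling here started from oligo-dT primers, which anneal to poly(A) tails and can also anneal to A-rich stretches inside a transcript.

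The spot files give no genome position for any probe. Matching the 60 bases to windows around annotated gene starts (RefSeq, GRCm38.p6, 250 bases before to 50 after the start) placed 104 of the 6730 probes at a single gene start on the strand opposite to the gene, and a further 41 on the same strand. The following probes are shown as examples, because they had low or high day differences in CD45-negative cells, or the highest levels, among placed probes of each strand. Probes lying inside an annotated coding gene were passed over unless they held a motif, so some placed probes with larger differences are not shown. Capitals mark motifs described further on, and 30 bases are shown where a coding gene is annotated at the place.
AK006914 (u178686): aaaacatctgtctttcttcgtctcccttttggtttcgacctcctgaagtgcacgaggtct
AK049508 (u200344): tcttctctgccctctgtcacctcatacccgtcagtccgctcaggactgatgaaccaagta
AK045552 (u187472): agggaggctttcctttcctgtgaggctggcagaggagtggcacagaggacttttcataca
AK044938 (u184308): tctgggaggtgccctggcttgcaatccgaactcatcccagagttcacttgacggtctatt
AK144316 (u194048): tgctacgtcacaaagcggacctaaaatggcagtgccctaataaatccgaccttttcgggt
u204655: tgctttctcaGGCTCTCCCtgtgaccggtt
u194856: aaAAGAAGAAGAAGaagaggaaggcgaaag
u200009: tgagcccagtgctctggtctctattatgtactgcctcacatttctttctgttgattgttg
AK045225 (u199702): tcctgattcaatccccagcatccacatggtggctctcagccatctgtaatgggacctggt

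AK006914 lies at chr1:89016165-89016224 on the plus strand, across the start of the lncRNA gene Gm34194 on the other strand and inside the annotated gene 1700067G17Rik on its own. AK049508 (chr14:122106837-122106896, minus strand) lies at positions -245 to -186 from the start of Tm9sf2, inside A330035P11Rik. AK045552 (chr6:31398622-31398681, minus strand) lies at -206 to -147 from the start of Mkln1, inside the antisense gene Mkln1os. AK044938 (chr4:62520182-62520241, plus strand) lies at -178 to -119 from Alad, in no annotated gene. AK144316 (chr10:58446641-58446700, minus strand) lies at -211 to -152 from Ranbp2, in no annotated gene. The bases shown of u204655 are at chr19:10577189-10577218 on the plus strand, where Tmem138 on the other strand and Cyb561a3 on its own are annotated. Those of u194856 are at chr10:127070456-127070485 on the plus strand, at the start of the lncRNA gene A730063M14Rik and inside Tspan31 on the other strand. u200009 (chr14:76677653-76677712, plus strand) lies inside 1700108F19Rik, opposite to the lncRNA gene 1700105F02Rik. AK045225 (chr14:56701189-56701248, minus strand) lies at -248 to -189 from the lncRNA gene Gm16973 on the same strand.

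Levels are log2 processed signals minus the 75th percentile of all probes on the array. By array, 46.3%, 48.9%, 38.8% and 41.4% of all noncoding probes were detected (LSK day 0, LSK day 10, CD45-negative day 0, CD45-negative day 10, the order used throughout). The median level of the detected-on-all-arrays noncoding probes was -0.58, -0.64, -0.38 and -1.01, against 0.89, 0.92, 0.81 and 1.03 for the other probes detected on every array. The noncoding probes were thus dimmer as a set, although their levels ran from -4.19 to 9.34. The probes nearest the detection limit were AK084313 (-3.23, -3.02, -1.14, -2.50), AK033134 (-3.37, -4.02, 0.12, -2.63) and AK138788 (-1.45, -1.65, -0.20, -2.44). Just outside it, detected on 3 arrays, were u182895 (0.20, 0.83, -3.28, 1.17), u192104 (1.32, 0.76, -5.13, 1.64) and AK047574 (0.44, 1.59, -3.60, 0.18). All 3 of these were lowest in CD45-negative cells at day 0, so the detection rule left out probes that were dim on that array alone.

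The first comparison asks how the CD45-negative cells of transplanted mice differed from those of healthy mice. Noncoding probes were mostly lower at day 10: 2659 of 6730 (39.5%) were at least 2-fold lower and 410 (6.09%) at least 2-fold higher, with a median difference of -0.74. Of the 19731 other probes detected on all arrays, 17.4% were at least 2-fold lower and 22.7% at least 2-fold higher, with a median of 0.17. Over all 26461 probes detected on every array, 23.1% were lower and 18.4% higher. The CD45-negative array of day 0 was the highest of the 4 for 50.7% of the noncoding probes, and that of day 10 the lowest for 56.4%. For the other probes these shares were 31.5% and 23.0%.

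The noncoding probes lay below the others at every level and base composition, by least among the dimmest probes (-0.86 against -0.56). In 7 bins of mean level the median of the noncoding probes lay between -0.94 and -0.54, while that of the other probes lay between -0.56 and 0.38 and was the higher in each bin. In 5 bins of GC content the medians were between -0.83 and -0.52 for noncoding and between 0.12 and 0.42 for other probes. The direction is relative to the array's own 75th percentile. With arrays centred on their median the median difference of the noncoding probes was -0.28, 797 were at least 2-fold higher and 1507 lower, and 34.6% rather than 13.4% of those past 2-fold were higher. With arrays scaled to the 5 spike-in controls it was 2.51, and 99.3% of those past 2-fold were higher, since that scaling adds 3.25 to every difference of this comparison and moves the median of all probes from -0.06 to 3.19. Both scalings add the same constant to every probe, so they leave the gap between noncoding and other probes as it is. With normexp background correction 206 rather than 410 were higher.

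**Figure D1:**
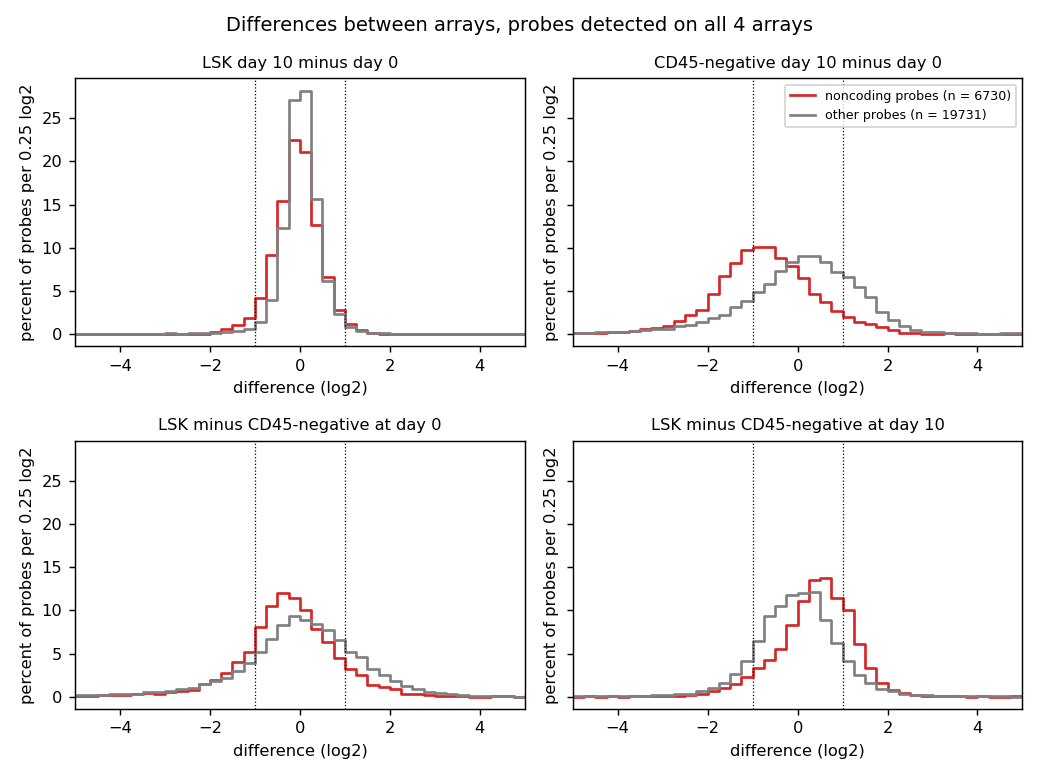
Percent of probes per bin of 0.25 log2 units (vertical axis) against the difference between 2 arrays in log2 units (horizontal axis) for the 4 comparisons. Red lines are the 6730 noncoding probes and grey lines the 19731 other probes detected on all 4 arrays, dotted lines mark 2-fold, and values beyond 5 are not drawn. In CD45-negative cells the noncoding probes lie to the left of the others (medians -0.74 and 0.17), while in LSK cells the lines overlap around 0.

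Marker genes of several cell types moved in the same comparison. All 8 erythroid markers were at least 2-fold lower at day 10, their summed level falling from 10.92 to 8.12, and so were all 8 stromal markers, from 6.96 to 3.52. Lepr and Pdgfra, stromal receptors, were not above background at day 10. All 8 T and NK cell markers were higher, from 2.35 to 6.90, and all 6 B and plasma cell markers, from 4.09 to 7.93. All 4 megakaryocyte markers were lower, from 4.46 to -0.04, and all 4 basophil and mast cell markers higher, from 0.72 to 3.20. Xist, a noncoding RNA of the inactive X chromosome of female cells, was detected on 2 arrays, with measured values of -5.79, -1.96, -4.53 and 3.81, in each population the higher at day 10. The labels used here give no sex for the mice. The part of these shifts in the noncoding differences was not tested.

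The largest falls in CD45-negative cells were of transcripts that stood out on a single array. AK139045 (u187766) had levels of -1.62, -1.80, 7.22 and -0.77, a difference of -7.99. AK085216 (u201536) had -3.10, -3.09, 7.77 and 1.5, a difference of -6.27, and AK039469 (u203225) had -2.76, -1.5, 2.41 and -4.03, a difference of -6.44. Each was high in CD45-negative cells of healthy mice and far lower on the other 3 arrays. AK037512 (u202491) had 0.15, -0.07, 6.22 and 0.18, AK032382 (u199882) had -0.44, -0.35, 5.09 and -0.90, and AK053403 (u192390) had -0.10, 0.22, 6.64 and 0.81. Their differences were -6.04, -5.99 and -5.83. In all 6 the levels of the LSK arrays and of CD45-negative cells at day 10 lay below the CD45-negative level of day 0. The probes whose pattern over the 4 arrays was nearest to that of AK139045, by Euclidean distance of the mean-centred levels, were u183212 (distance 1.81), AK053403 (2.02) and AK037512 (2.25). u183212 had -1.43, -1.66, 5.43 and -0.28. No gene could be named for these 7 probes from a position or a shared accession.

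The largest rises in the same comparison were of probes that were low in CD45-negative cells of healthy mice and higher on the other 3 arrays. u202020 had levels of 4.32, 4.0, -0.80 and 4.58, a difference of 5.38. AK035161 (u205854) had 0.63, 1.15, -2.89 and 1.12 (4.01), and AK166311 (u185478) had 2.43, 3.47, -2.14 and 1.43 (3.57). For u178229 the levels were 0.62, 0.37, -2.52 and 0.97, and for AK134188 (u190193) 2.35, 2.41, -0.79 and 2.62. Their differences were 3.49 and 3.40. u204655, placed at the start of Tmem138 and inside Cyb561a3 on its own strand, had 1.53, 1.42, -1.80 and 1.55, a difference of 3.35. The probe for Tmem138 itself, a transmembrane protein gene, was detected on 3 arrays and had -2.54, -2.25, -3.06 and -3.43.

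**Figure D2:**
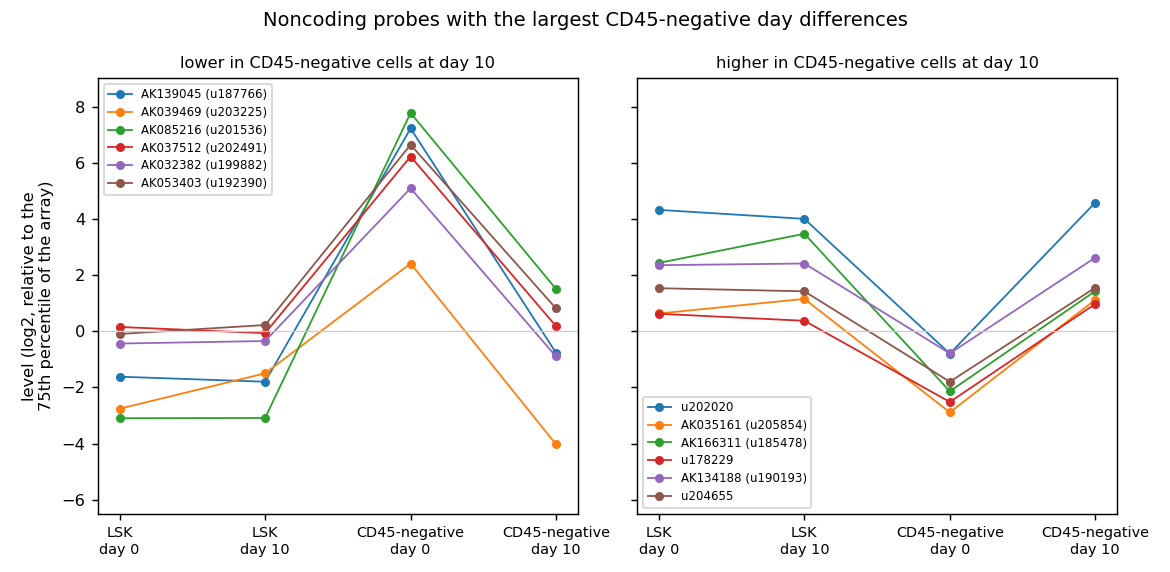
Level (log2, relative to the 75th percentile of the array, vertical axis) on the 4 arrays (horizontal axis) for the 6 noncoding probes with the largest falls (left) and the 6 with the largest rises (right) in CD45-negative cells; each line is 1 probe and lines only join its points. The CD45-negative array of day 0 is the highest point for all 6 on the left (2.41 to 7.77) and the lowest for all 6 on the right (-2.89 to -0.79).

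A 9-base motif was noticed among the rising probes after their values were seen. GGCTCTCCC, searched on the probe's own strand, was held by 12 of 20679 noncoding probes (0.058%), of which 11 were detected on every array. Of these 11, 9 were at least 2-fold higher and none lower at day 10 in CD45-negative cells, with a median difference of 1.72 and a range from -0.64 to 4.01. In that comparison 6.09% of all noncoding probes were higher, and 18.4% of all probes detected on every array. The 1 other probe with the motif that was detected on every array differed by -0.93, the other way. In LSK cells the same 11 had a median difference of 0.07, and none passed 2-fold. Its reverse complement, GGGAGAGCC, was in 1 detected noncoding probe, whose difference was -0.58. The motif on either strand was in 0.901% of the RefSeq start windows. Because the probes were found through their values, the count describes these arrays and is no test.

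The second comparison asks the same of LSK cells, and here the noncoding probes moved little. At day 10, 118 of 6730 (1.75%) were at least 2-fold higher and 259 (3.85%) lower, with a median of -0.06. The corresponding shares were 1.35% and 1.62% of the other probes, and 1.45% and 2.19% of all probes detected on every array, so the share higher was near the background. With median centring 165 were higher and 210 lower, 44.0% rather than 31.3% of those past 2-fold, and with the spike-in scaling 50 were higher and 439 lower, which is 10.2%. With normexp 40 were higher and 104 lower. AK014772 (u178183) had levels of -1.98, 0.94, 1.07 and -0.34, the largest rise at 2.92. AK020875 (u181633) had -2.11, -0.13, -1.79 and -1.07, a rise of 1.99. The probe named snoRNA (u4946) had 1.53, 2.86, 2.32 and 0.70, and AK008044 (u179378) had 0.21, 1.54, 1.40 and -0.30, each higher by 1.33 in LSK cells. AK028107 (u203804), with 2.32, 3.82, 3.06 and 4.77, was higher in both populations, by 1.5 and 1.70. u194731 was higher by 1.31.

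Among the falls in LSK cells, u181005 had levels of -1.18, -4.0, -1.61 and -2.35, a difference of -2.83. Its lowest signal was only 1.79 times the SD of the background, and with normexp its difference was -1.26. AK035802 (u183557) had 0.33, -2.16, 0.10 and -1.85, lower by 2.48 in LSK and by 1.94 in CD45-negative cells. u201281 had 1.04, -1.29, -0.22 and 1.72, and went opposite ways, by -2.32 in LSK and 1.94 in CD45-negative cells. u201338, u189411 and AK077845 (u183852) differed by -2.26, -2.12 and -2.07 in LSK cells. Over all 6730 probes, 114 (1.69%) were at least 2-fold lower in both populations, 20 (0.297%) higher in both, 37 (0.55%) higher in LSK and lower in CD45-negative cells, and 31 (0.461%) the reverse. The shares of the other probes were 0.603%, 0.563%, 0.253% and 0.603%. The LSK arrays also differed in cell type markers: 3 of the 4 basophil and mast cell markers were at least 2-fold lower at day 10, their summed level going from 7.99 to 6.21, and 3 of the 6 neutrophil markers higher. The summed level of the 6 B and plasma cell markers went from 7.71 to 4.37, with 2 of them at least 2-fold lower, and 3 of the 8 T and NK cell markers were lower. Their part in the LSK differences was not tested.

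The remaining comparisons set LSK against CD45-negative cells at each day. At day 0, 667 noncoding probes (9.91%) were at least 2-fold higher and 1301 (19.3%) lower in LSK cells, with a median of -0.25, against 20.9% higher and 18.1% lower among the other probes (18.1% and 18.4% over all probes detected on every array). At day 10 the balance turned: 1505 (22.4%) were higher and 421 (6.26%) lower, with a median of 0.45, against 10.6% and 12.1% of the other probes (13.6% and 10.6% of all). That turn was not kept under median centring, which gave 549 higher and 817 lower at day 10 (40.2% higher, against 78.1%). Under the spike-in scaling 96.7% of those past 2-fold were higher at day 0 and 0.397% at day 10. With normexp 299 were higher and 687 lower at day 0, and 623 and 218 at day 10. These comparisons share arrays with the day comparisons and add no independent values.

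The largest differences at day 0 were those of AK085216 (-10.87), AK139045 (-8.84), u183212 (-6.86), AK053403 (-6.74), AK020275 (-6.29) and AK045298 (-6.16), all low in LSK cells. Of these, AK020275 (u184135) had -3.33, -3.28, 2.96 and -0.51, and AK045298 (u184876) had -2.81, -2.88, 3.35 and -1.88. Both were far higher in CD45-negative cells of healthy mice than on either LSK array. Higher in LSK cells at day 0 were u202020 (5.12), u203045 (4.61), AK166311 (4.58), AK043438 (4.48), AK032904 (4.30) and u189411 (4.29). u203045 had 2.94, 1.81, -1.67 and -0.75, so it was the higher in LSK cells at both days. The erythroid markers, 8 of 8 lower in LSK cells at both days, and the stromal markers, 7 of 8 lower at day 0, moved with the first set, and their part in it was not tested.

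At day 10 the largest difference towards LSK was that of u194856, at the start of the lncRNA gene A730063M14Rik. Its levels were 4.36, 2.64, 1.94 and -2.38, a difference of 5.01 at day 10 and of 2.41 at day 0. AK037146 (u204287) had 0.60, 1.07, -3.02 and -3.79, higher in LSK cells by 4.86 at day 10 and 3.62 at day 0. u181094 had 4.0, 2.89, 2.94 and -1.14 (4.03). AK145584 (u185180) had 3.94, 4.49, 1.18 and 0.98 (3.51), and so was high in LSK cells at both days with little change between days. u181318 (3.32) and AK046134 (3.25) were separated mainly by their low levels in CD45-negative cells at day 10, -3.30 and -3.87. Towards CD45-negative cells, AK085216 differed by -4.59, u204671 by -4.23, u183957 by -3.75, AK052740 by -3.65, AK041456 by -3.53 and u201338 by -3.48. u204671, with -2.89, -1.44, 1.27 and 2.79, was the higher in CD45-negative cells at both days and higher at day 10 in both populations. At day 10, 7 of 8 T and NK cell markers and 5 of 6 B and plasma cell markers were at least 2-fold lower in LSK cells, and 4 of 4 basophil and mast cell markers higher. Their part in these differences was not tested.

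Repeated sequence marked the bright end of the set. Probes were classed by the number of genes whose start window shared a run of at least 25 bases with them, on either strand. Of noncoding probes sharing with no gene, 30.8% were detected on all arrays; of those sharing with 10 or more genes, 246 of 271 (90.8%) were. The 5664 probes with 4 values in the first class had median levels of -0.82, -0.89, -0.61 and -1.21. The 246 in the last had 5.01, 4.66, 5.51 and 4.50, and the classes between them lay between, at 2.56, 2.33, 2.84 and 2.09 for 2 to 9 genes. In CD45-negative cells 54.9% of the last class were at least 2-fold lower at day 10 and 0.407% higher (median -1.15), against 38.5% and 6.73% of probes sharing with no gene (median -0.70). Saturated probes were kept in these classes, and their part in the shares was not tested. Without the 65 probes saturated on any array, 2616 rather than 2659 of all noncoding probes were lower. A probe of a repeated sequence can bind RNA of many loci, so its level belongs to no single transcript. The 10 highest mean levels, from 8.32 to 8.42, were all of probes saturated on at least 1 array, so their order and their differences are not interpretable.

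**Figure D3:**
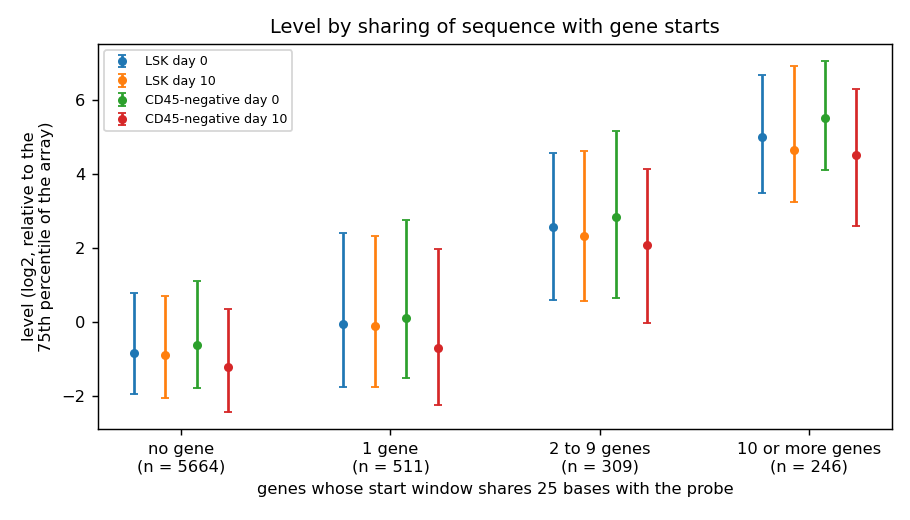
Median level (points; log2, relative to the 75th percentile of the array) with the 25th to 75th percentile of probes (bars) on each array, for noncoding probes grouped by the number of genes whose start window shares at least 25 bases with the probe. On each of the 4 arrays the medians rise from the class with no gene (-1.21 to -0.61) to the class with 10 or more genes (4.50 to 5.51).

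Probes with runs of 2 alternating bases behaved by the strand they read. These runs were noticed after the values were seen and were searched on the probe's own strand. TGTGTGTGTGTGTGTG was in 77 noncoding probes (0.372%), all of them detected on every array, with median levels of 6.81, 7.09, 7.12 and 6.61. Its complement CACACACACACACACA was in 66, also all detected, with 3.88, 3.24, 4.56 and 3.26. The former had a median LSK day difference of 0.22 (25th to 75th percentile 0.13 to 0.29) and the latter of -0.61 (-0.70 to -0.52). AGAGAGAGAGAGAG was in 31 probes, with median levels of 4.35, 3.01, 4.1 and 2.62, and TCTCTCTCTCTCTC was in 32, with 4.65, 5.61, 5.34 and 5.33. In LSK cells 26 of the 31 were at least 2-fold lower at day 10 (median -1.40) and none higher, while 15 of the 32 were higher (median 0.99) and none lower. The 25th to 75th percentile of the 32 was 0.93 to 1.06, so their count depends on the 2-fold limit. Over all 6730 noncoding probes 3.85% were lower and 1.75% higher, and over all probes detected on every array 2.19% and 1.45%. In CD45-negative cells the medians of these 2 runs were -1.54 and -0.08. The adenine-guanine run was in 0.461% of the 6730 noncoding probes but in 10.0% of the 259 lower in LSK cells, and the thymine-cytosine run in 0.475% but in 12.7% of the 118 higher. Because the runs were found through these values, the counts and shares describe these arrays and are no test. Probes of a run share their sequence, so they are not independent measurements.

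**Figure D4:**
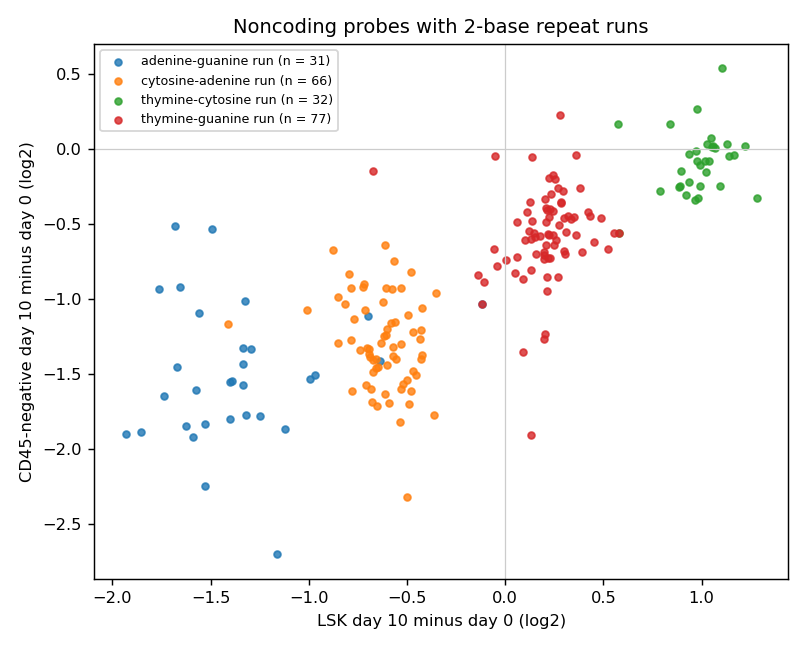
Day difference in CD45-negative cells (vertical axis, log2) against that in LSK cells (horizontal axis, log2) for noncoding probes with a run of 2 alternating bases; each point is 1 probe and the colours are the 4 runs, named by the bases on the probe's strand. Probes of a run lie together, with LSK medians of -1.40 (adenine-guanine), -0.61 (cytosine-adenine), 0.22 (thymine-guanine) and 0.99 (thymine-cytosine).

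The motif AAGAAGAAGAAG, 12 bases of a 3-base repeat also noticed after the values were seen, was in 10 noncoding probes, 9 of them detected on every array, u194856 among them. All 9 were at least 2-fold lower in CD45-negative cells at day 10 (median -1.79) and 7 of 9 in LSK cells (median -1.18). All 9 were at least 2-fold higher in LSK than in CD45-negative cells at day 10 (median 1.78). Over all 6730 noncoding probes the shares past 2-fold in these directions were 39.5%, 3.85% and 22.4%. Over all probes detected on every array they were 23.1%, 2.19% and 13.6%. The 6 other probes with this motif that were detected on every array had medians of -1.76, -1.62 and 2.03 in the same comparisons. The 11 noncoding probes with the complement CTTCTTCTTCTT had a median of 0.59 in LSK and 0.27 in CD45-negative cells. Since such probes share their sequence, they are not independent measurements.

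Strand also separated some less simple sequences, but not all. Pairs of noncoding probes complementary over at least 40 bases, and matching at most 2 gene starts, fell into 6 families. In the first, the probes AK033763, u182564, u183852 and u192930 read one strand and fell by 1.26 to 1.53 in LSK and by 2.02 to 2.82 in CD45-negative cells. The 4 probes of the other strand, AK051040, AK148110, u191705 and u196326, differed by 0.72 to 0.96 in LSK and by -0.09 to 0.13 in CD45-negative cells. The levels of the 2 strands were 4.37 to 4.89 against 1.16 to 2.40 in LSK cells at day 0, and 3.11 to 3.64 against 2.12 to 3.18 at day 10. In the second family the 7 probes of one strand differed by -2.37 to -1.11 in CD45-negative cells and the 4 of the other by -0.33 to 0.01. AK163121 and AK153494, complementary over 59 bases, went opposite ways in CD45-negative cells. AK163121 had 4.18, 3.21, 2.59 and 4.95 (2.36) and AK153494 had 4.44, 4.11, 4.33 and 1.86 (-2.47). In another family both strands fell at least 2-fold in CD45-negative cells, AK046688 and u194840 by -1.26 to -1.21 and u201632 by -2.21. In LSK cells they differed by 0.31 to 0.47 and by -1.20. Of the pair u179868 and u195828 the CD45-negative differences were 0.11 and 1.80. Those of u200423 and u200848 were -0.32 and -1.12, both lower. How many loci carry these sequences was not tested.

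The 104 probes that read the strand opposite to a gene at its start are the placed probes in the orientation of promoter-antisense transcripts. Of the 104, 82 lay opposite to a protein-coding gene. An annotated gene on the probe's own strand covered 53 of the 104, in some cases a coding gene such as Irf3 or Lsm7. A further 34 lay in no annotated gene. The median levels of the 104 were -1.45, -1.5, -0.92 and -1.86. In CD45-negative cells 50 (48.1%) were at least 2-fold lower at day 10 and 3 higher, with a median of -0.86, against 39.5% lower and a median of -0.74 over all 6730 noncoding probes and 23.1% lower over all probes. In LSK cells 1 was lower and 2 higher. For 65 of them the gene's own probe was detected on all arrays. Of these 65, 32 were at least 2-fold lower in CD45-negative cells, and of those 32 the gene was also lower at 5, under 2-fold at 22 and higher at the other 5. The medians were -0.86 for the noncoding probes and 0.11 for the genes.

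AK044938 went with its gene. Its levels were -1.62, -1.89, 0.43 and -2.40, and those of Alad, an enzyme of haem synthesis, were 2.47, 2.13, 6.89 and 3.41, so both were highest in CD45-negative cells at day 0 and fell by 2.84 and 3.48. AK045552 had -1.94, -1.78, 1.48 and -1.72 and Mkln1 had -0.71, -0.50, 1.39 and 0.41, differences of -3.20 and -0.98. AK049508 had -1.07, -0.24, 1.54 and -1.75, a difference of -3.29, whereas Tm9sf2 had 3.74, 3.46, 3.33 and 3.53 and differed by 0.19. AK040041, before the start of Cd48, a surface protein of blood cells, had -1.94, -1.61, 0.23 and -2.49 and fell by 2.71. Cd48 itself had 3.53, 3.81, 2.26 and 3.67 and was higher by 1.41, so the 2 went opposite ways. AK144316 had 0.96, 1.23, -0.69 and 0.80, a rise of 1.48, and Ranbp2, a nuclear pore gene, had 2.18, 2.37, 3.39 and 2.55, a difference of -0.84.

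**Figure D5:**
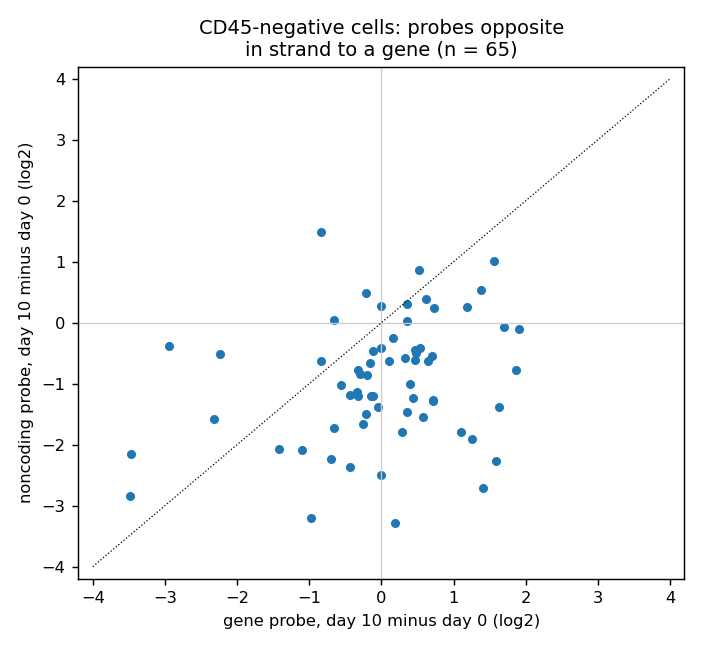
Day difference in CD45-negative cells (log2) of noncoding probes that read the strand opposite to a gene at its start (vertical axis) against that of the gene's own probe (horizontal axis); each of the 65 points is 1 noncoding probe whose gene was detected on all arrays, and the dotted line is equality. Most points lie below the line, with medians of -0.86 for the noncoding probes and 0.11 for the genes.

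The 41 placed probes on the same strand as the gene had a median difference of -0.89 in CD45-negative cells, with 17 (41.5%) lower and 2 higher by 2-fold, near the 39.5% lower of all noncoding probes. AK006914, opposite to Gm34194, had -2.85, -2.76, 1.67 and -3.41, the largest fall of any placed probe at -5.07. u200009 had 6.37, 5.88, 6.47 and 4.90 and AK045225 had 7.46, 7.40, 8.28 and 6.99, the highest levels among the placed probes. AK133110, which carries the u-number u200009 too, had 4.42, 3.88, 4.35 and 3.35, the same order of arrays apart from LSK and CD45-negative cells at day 0.

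For 125 probes the accession also belonged to a probe with a gene name, which was detected on every array in 55 cases. In CD45-negative cells 12 of these 55 noncoding probes, which belong to 40 genes, were at least 2-fold lower at day 10 and 8 higher. Over all 6730 noncoding probes 39.5% were lower and 6.09% higher, and over all probes detected on every array 23.1% and 18.4%. The probes of 9 of the 40 genes were lower and those of 10 higher. Noncoding and gene probes were both lower at 5 genes, and 3 noncoding probes went the opposite way to their gene. The median gap between the 2 differences was 0.43 log2 units. In LSK cells it was 0.26. u201109, which shares an accession with a probe for Tnrc6b, a gene of microRNA-guided silencing, had -1.56, -2.32, 1.14 and -2.56, a fall of 3.70. The probe for Tnrc6b itself had -0.04, -1.11, 0.51 and 0.03 and differed by only -0.48. u194656, linked to Nav3, had 0.18, -0.67, 3.11 and -1.23, a fall of 4.34, although the probe for Nav3 was detected on no array.

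Of the 6 probes with established RNA names, H19, an imprinted fetal RNA, had -0.89, -0.75, -0.03 and -1.48, lower by 1.45 in CD45-negative cells. The separate gene probe for H19 was detected on 3 arrays at -3.65, -3.52, -4.11 and -4.0, near background, and gave no direction. BC1, a small cytoplasmic RNA known from neurons, had -1.21, -1.14, -1.47 and -1.84 on one probe and -1.92, -1.01, -1.99 and -1.92 on the other, with no day difference of 2-fold. GNAS1 had 0.31, -0.11, 0.68 and 0.16, and SRA, a steroid receptor coactivator RNA, had 0.65, 0.65, 1.65 and 1.69, about 2-fold higher in CD45-negative cells at both days (-1.0 and -1.04). A further 11 probes with names of this kind, those for Tsix and bic, the miR-155 host RNA, among them, were detected on fewer than 4 arrays.

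A list of 52 other noncoding RNA genes was read from the gene probes, 33 of them on the array and 21 detected on all arrays. Each gene has a single set of values here, although some had several probes, such as Malat1 and Xist with 4 each. In CD45-negative cells 9 of the 21 were at least 2-fold lower at day 10 and 2 higher, with a median of -0.75, against 17.4% lower and 22.7% higher among the other probes. Malat1, a nuclear-speckle RNA, had 6.07, 6.23, 7.31 and 6.05, and Neat1, the scaffold of paraspeckles, had 4.68, 4.29, 5.25 and 3.45. The others lower were Ftx, Gas5, Oip5os1, Lockd, Terc, Rpph1 and Rmrp, with differences from -1.21 (Terc) to -4.21 (Rmrp, the RNA of RNase MRP). Higher were the imprinted Peg13 (1.33) and 2700089E24Rik (1.09), which RefSeq now lists as the coding gene Smim10l1. In LSK cells 3 of the 21 were higher, Terc (1.11), Rpph1 (1.23) and Rmrp (1.54), and none lower. Over all probes detected on every array 1.45% were higher and 2.19% lower in LSK cells. The median of the 21 in CD45-negative cells lay near that of the noncoding probes, -0.74.

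Probes that read overlapping sequence on the same arrays show how far probes alone differ, which does not stand in for replicate samples. Among 228 pairs of noncoding probes that overlap by at least 40 bases and match no gene start, the median gap between their differences was 0.16 in LSK and 0.25 in CD45-negative cells, and the 95th percentile 0.65 and 1.05. The 471 u-numbers with exactly 2 probes gave pairs with median gaps of 0.22 and 0.41, and 95th percentiles of 1.08 and 2.25. Pairs that also overlap in sequence were not taken out of these. Sharing a u-number did not make values alike in the largest group: the 19 probes of u186108 had CD45-negative day differences from -5.15 (AK009197) to 2.88 (AK080505). AK009197 had -1.75, -2.14, 3.99 and -1.16, and AK080505 had -0.22, -0.40, -1.93 and 0.95. Of all 6730 probes, 2468 (36.7%) stayed under 2-fold in the 4 comparisons. The steadiest were AK158190 (0.88 to 0.93 over the arrays), u181918 (3.31 to 3.36), AK036896 (-1.07 to -1.01), u185158 (-2.28 to -2.21) and u198860 (-1.61 to -1.5).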

How the data were processed

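Signals were extracted by the authors with Agilent's Feature Extraction software, version 10.5.1.1, per the file headers, which name mm9 as the design's build. The deposited spot files hold fluorescence intensity per spot, background-subtracted and detrended as the processed signal, with detection, saturation and outlier flags and a control type, which are of other kinds and neither signals nor ratios. The deposited series table holds log2 values equal, within 0.001 for at least 99.977% of probes on each array, to the log2 processed signal minus a constant. Their scale, centring and direction are therefore known. Per the labels, total RNA was labelled with Cy3 by oligo-dT priming.

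From these, controls and outlier spots were removed, spots of a probe were averaged as log2 signals, and each array was set to 0 at its 75th percentile over all probes. Background normexp (offset 50) and quantile alternatives used limma 3.58.1 in R 4.3.3; the rest used Python 3 and pandas. Replicate spots of a probe had a root-mean-square SD of 0.137 to 0.213 log2 units. The number of arrays limits precision. Counting was tested on simulated data. Named probes are, per comparison, the 6 largest differences each way that were unsaturated and past 2-fold under normexp and quantile too, the 10 brightest, the 5 steadiest, those next to the detection limit and the 3 nearest in pattern to the most changed. Placed and linked probes were added by the rules given with them, and examples among them after their values were seen. The probes, lists and rules were chosen with earlier results of these data known. Other alternatives were a median shift, the 75th percentile of detected probes, spike-in scaling, the deposited table, saturated probes left out and u-numbers averaged. Where a gene at a placed probe had several probes of its own, the probe with the highest mean level was used. Gene names are RefSeq's (GRCm38.p6).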

Additional observations from a re-analysis of the deposited data

Results flagged for a closer look

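Among the named noncoding probes, 8 were at least 2-fold apart between days in both populations but in opposite directions. With 1 array per group the difference between the populations was not tested. Higher in LSK and lower in CD45-negative cells at day 10 were AK014772 (2.92 and -1.41), snoRNA u4946 (1.33 and -1.62), AK008044 (1.33 and -1.70), AK039469 (1.26 and -6.44) and AK046134 (1.09 and -3.53). Lower in LSK and higher in CD45-negative cells were u201281 (-2.32 and 1.94), u189411 (-2.12 and 1.23) and AK052740 (-1.20 and 1.94).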

How the results depend on the processing

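All 48 named differences kept their direction and stayed past 2-fold under the 6 alternatives run for them (288 values). The rule that named them required this under normexp and quantile, and the other 4 alternatives add a constant smaller than these differences, so this is no sign of stability. Of the 64 alternative counts of probes past 2-fold, 45 were within 1.5 times the reported count. With normexp the counts higher and lower were 40 and 104 in LSK cells between days, 206 higher in CD45-negative cells between days, 299 and 687 for LSK against CD45-negative cells at day 0, and 623 and 218 at day 10. The median shift gave 797 and 1507 in CD45-negative cells between days, and 549 and 817 for the populations at day 10. Spike-in scaling gave 50 and 439 in LSK cells between days, 6242 and 47 in CD45-negative cells between days, 4885 and 165 for the populations at day 0, and 17 and 4266 at day 10. It adds -0.19, 3.25, 1.75 and -1.69 to every difference, by construction. Detection on at least 1 array would give 11478 probes. No paired analysis was possible because each group has 1 array. Leaving out an array would leave no comparison. Signals near background limit the lowest levels, saturation the highest, and probe cross-binding to repeats the naming of a source.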
